A study of Saccharomyces cerevisiae with 39 samples.

Results

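The genes of the cytosolic chaperonin CCT, also called TRiC, were followed while the DNA-binding protein Abf1 was taken out of the nucleus of budding yeast. The members were the 8 subunit genes TCP1 (YDR212W, whose product is also called CCT1), CCT2 (YIL142W), CCT3 (YJL014W), CCT4 (YDL143W), CCT5 (YJR064W), CCT6 (YDR188W), CCT7 (YJL111W) and CCT8 (YJL008C), defined by name, with no measured value in the rule, among the 6420 features of the count table. All 8 passed the filter on low counts, which kept 5722 features.

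CCT is a barrel of 2 stacked rings that binds newly made or unfolded protein in its cavity and releases it folded, driven by ATP. The subunits are related to each other but each is encoded by a gene of its own, and every subunit has a fixed place in each ring, so that a complete chaperonin needs the product of every gene. Actin and tubulin are its best-known substrates, and the complex is essential in yeast. In the ring, TCP1 lies between CCT3 and CCT4, CCT5 between CCT2 and CCT7, and CCT8 between CCT7 and CCT6.

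Newly made RNA was measured by 4tU-seq: cells were given 5 mM 4-thiouracil for 6 min, and RNA that had taken it up was isolated and sequenced. All cultures were BY4742 MATalpha yeast with tor1-1, a deletion of FPR1 (fpr1del) and RPL13A-FKBP12-NAT, a ribosomal protein fused to the rapamycin-binding anchor. The tagged strain additionally carried Abf1-FRB-yEGFP-3V5-hphMX4, so that 7.5 µM rapamycin ties Abf1 to ribosomal protein that leaves the nucleus, and it was sampled in 11 groups, after 90 min of DMSO alone (Abf1 0 min) and after rapamycin for 5 to 90 min (every 5 min to 20 min, every 10 min to 60 min, then at 75 and 90 min). The untagged parent (WT) was sampled after 90 min of DMSO (WT 0 min) and 90 min of rapamycin (WT 90 min). Each of the 13 groups held 3 biological replicates, 39 libraries in all. Tagging slows growth slightly, and Abf1 is essential.

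Library totals lay between 3500982 and 11266408 counts (median 5467295), and a subunit gene had at least 192 counts in every library. That lowest count was of CCT5 in Abf1 50 min replicate 2, which also held the lowest counts of 6 other subunit genes. Levels are given as CPM, counts scaled by TMM to the size of each library, and no reference RNA was added, so all changes are relative to the labelled RNA of the library. In these bulk samples, fewer cells making an RNA and less RNA made per cell cannot be told apart. ABF1 itself was 0.99 higher on the log2 scale in Abf1 0 min than in WT 0 min (SE 0.12, edgeR adjusted p = 8.05e-06). The mating type matched the labels: the alpha-type genes had 292 to 22715 counts per library and the a-type genes MFA1 and MFA2 at most 9, while the a-type receptor gene STE2 had 17 to 75.

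The stretch before each start codon that spans the Abf1 consensus match, where there is one, and the shared element is printed because 7 of the 8 subunit genes shared an Abf1 consensus match there. Sequences are from the NCBI reference genome (assembly R64, the same assembly as sacCer3), read 5′ to 3′ on the coding strand, with the Abf1 consensus and a shared element, GTGGCAA or GTGGCGA on either strand, in capitals and 10 bases on each side.
TCP1: cttgtcctaaGTGGCAAagaactgaaa
CCT2: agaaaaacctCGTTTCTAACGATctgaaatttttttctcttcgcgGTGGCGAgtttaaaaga
CCT3: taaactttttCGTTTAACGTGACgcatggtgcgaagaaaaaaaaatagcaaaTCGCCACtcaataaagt
CCT4: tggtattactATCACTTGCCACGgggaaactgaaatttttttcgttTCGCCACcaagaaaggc
CCT5: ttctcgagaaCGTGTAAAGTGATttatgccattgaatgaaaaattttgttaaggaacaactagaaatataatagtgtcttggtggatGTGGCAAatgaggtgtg
CCT6: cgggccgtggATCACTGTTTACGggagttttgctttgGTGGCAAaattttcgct
CCT7: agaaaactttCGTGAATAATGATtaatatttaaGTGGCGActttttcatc
CCT8: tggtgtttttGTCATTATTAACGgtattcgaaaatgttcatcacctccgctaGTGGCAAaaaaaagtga

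These stretches lie at chrIV:887073-887099 (TCP1), chrIX:83154-83215 (CCT2), chrX:407400-407468 (CCT3), chrIV:199824-199886 (CCT4), chrX:555744-555847 (CCT5), chrIV:836210-836263 (CCT6), chrX:207688-207737 (CCT7) and chrX:421753-421821 (CCT8). CCT8 is on the minus strand and the other 7 genes on the plus strand. The coding regions span 1584 to 1707 bases, and no other annotated gene overlaps any of them.

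After rapamycin in the tagged strain the subunit genes split. Synthesis of CCT4, CCT5 and CCT8 fell to well under the starting level and stayed low to 90 min, that of CCT2 and CCT3 fell less and was called lower at 5 times and 1 time, and TCP1, CCT6 and CCT7 were called lower at none of the 10 times. Of the 8, 5 were called lower at 30 min, where 9.8% of all genes tested were, and 3 at 90 min, where 11.3% were. CCT5 fell most, being 6.02-fold lower at 50 min, whereas TCP1 stood at a log2 fold change of 0.08 (SE 0.11) at that time. Calls required a Benjamini-Hochberg adjusted p under 0.01 in edgeR's quasi-likelihood test together with a change of over 1.5-fold.

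**Figure D1:**
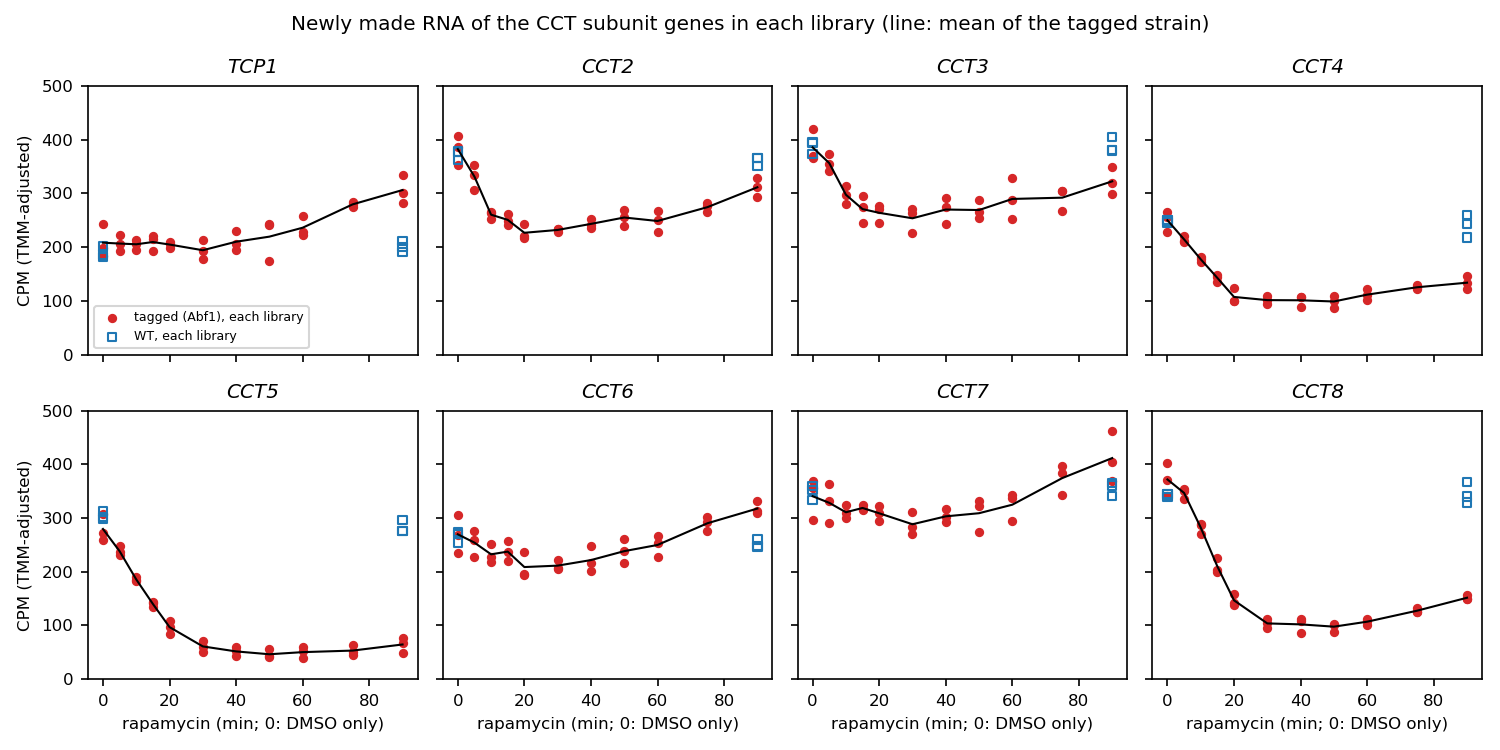
Newly made RNA of each subunit gene (CPM, linear axis) against time in rapamycin, where 0 stands for DMSO alone. Filled circles are the libraries of the tagged strain, open squares those of WT and the line joins the means of 3 tagged replicates; CCT5 fell from 259 to 307 CPM to between 40.6 and 55.4 CPM at 50 min, while TCP1 lay at 174 to 244 CPM at that time.

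CCT5 had 273, 307 and 259 CPM in the 3 libraries of Abf1 0 min. It had 108, 97.7 and 84.7 CPM at 20 min, 55.4, 42.7 and 40.6 CPM at 50 min and 77.0, 48.4 and 68.0 CPM at 90 min. No tagged library from 5 min on reached the lowest library of Abf1 0 min. At 5 min the log2 fold change was -0.23 (SE 0.15). It reached -1.53 after 20 min (SE 0.15, edgeR adjusted p = 1.71e-09) and -2.59 after 50 min (SE 0.16, edgeR adjusted p = 2.32e-14). After 90 min it was -2.12 (SE 0.16, edgeR adjusted p = 1.97e-12). CCT5 was called from 10 min on (-0.59 at that time, SE 0.15, edgeR adjusted p = 0.00801). That early call was lost without any one of 5 of the 6 libraries compared, Abf1 0 min replicate 1 (adjusted p = 0.0125), Abf1 0 min replicate 2 (0.0394) or Abf1 10 min replicate 1 (0.0223), 2 (0.0374) or 3 (0.0247). CCT2, at -0.56 just under 1.5-fold at 10 min, was called there without Abf1 0 min replicate 2 (-0.59) or 3 (-0.65) or Abf1 10 min replicate 1 (-0.62).

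CCT8 had 403, 371 and 341 CPM in Abf1 0 min. At 20 min its libraries were at 159, 139 and 142 CPM, at 50 min at 101, 88.2 and 103 CPM and at 90 min at 157, 149 and 149 CPM. The groups did not overlap at any of these times, and every 90 min library was above every 50 min library. On the log2 scale CCT8 changed by -1.34 after 20 min (SE 0.09, edgeR adjusted p = 5.83e-14), by -1.93 after 50 min (SE 0.09, edgeR adjusted p = 1.34e-17) and by -1.30 after 90 min (SE 0.09, edgeR adjusted p = 1.07e-13).

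CCT4 had 265, 256 and 229 CPM in Abf1 0 min. It had 124, 98.9 and 99.3 CPM at 20 min, 109, 87.1 and 101 CPM at 50 min and 134, 122 and 145 CPM at 90 min, with no overlap with Abf1 0 min. The fall was thus close to its deepest by 20 min, with log2 fold changes of -1.22 (SE 0.10) at 20 min, -1.34 (SE 0.10) at 50 min and, after 90 min, -0.90 (SE 0.10, edgeR adjusted p = 3.76e-09). CCT4 and CCT8 were each called lower at the 8 times from 15 min on and CCT5 at the 9 times from 10 min on; 6.34% of all genes tested were called lower at 8 or more times.

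CCT2, which contacts its own copy across the ring interface, had 408, 387 and 353 CPM in Abf1 0 min. At 20 min it had 243, 220.5 and 217 CPM and at 90 min 294, 329 and 312 CPM, all below the lowest starting library. Its log2 fold change was lowest at 20 min (-0.75, SE 0.07, edgeR adjusted p = 1.37e-10) and was -0.30 (SE 0.07) at 90 min, no longer past 1.5-fold. It was called at 15, 20, 30, 40 and 60 min, and at 50 min its 1.499-fold decrease lay just under the limit.

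CCT3 had 370, 421 and 367 CPM in Abf1 0 min. Its libraries were at 271, 227 and 263 CPM at 30 min and at 319, 299 and 349 CPM at 90 min. Both groups lay below Abf1 0 min without overlap. CCT3 was called only at 30 min, when it changed by -0.61 on the log2 scale (SE 0.09, edgeR adjusted p = 4.72e-06), and stood at -0.26 (SE 0.09) after 90 min. Without Abf1 0 min replicate 2 (-0.57) or Abf1 30 min replicate 2 (-0.56) the 30 min decrease was under 1.5-fold, and without Abf1 0 min replicate 1 or 3 CCT3 was called at 20 min as well (-0.62 in both cases).

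TCP1 had 184, 243 and 198 CPM in Abf1 0 min, 210, 206 and 199 CPM at 20 min and 283, 301 and 335 CPM at 90 min. The 20 min libraries lay within the starting range and the 90 min libraries all above it. TCP1 had a log2 fold change of -0.02 (SE 0.11) after 20 min, 0.42 after 75 min (SE 0.11, edgeR adjusted p = 0.00210) and 0.56 after 90 min (SE 0.11, edgeR adjusted p = 9.75e-05), the last just under 1.5-fold. Without Abf1 0 min replicate 2, the highest starting library, it was called higher at 90 min (0.63).

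CCT6, which like CCT2 meets its own copy in the other ring, had 268, 305 and 236 CPM in Abf1 0 min. At 20 min it had 236, 193 and 196 CPM, overlapping the start, and at 90 min 312, 309 and 331 CPM, all above it. The log2 fold change of CCT6 was -0.37 after 20 min (SE 0.10, edgeR adjusted p = 0.00585), short of 1.5-fold, and 0.24 after 90 min (SE 0.10, edgeR adjusted p = 0.0559). CCT7 had 296, 369 and 356 CPM in Abf1 0 min, 311, 271 and 283 CPM at 30 min and 403, 369 and 462 CPM at 90 min. Its 30 min libraries overlapped the start, its 90 min libraries lay just above it, and its log2 fold change was -0.24 (SE 0.09) at 30 min and, after 90 min, 0.27 (SE 0.09, edgeR adjusted p = 0.0203).

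**Figure D2:**
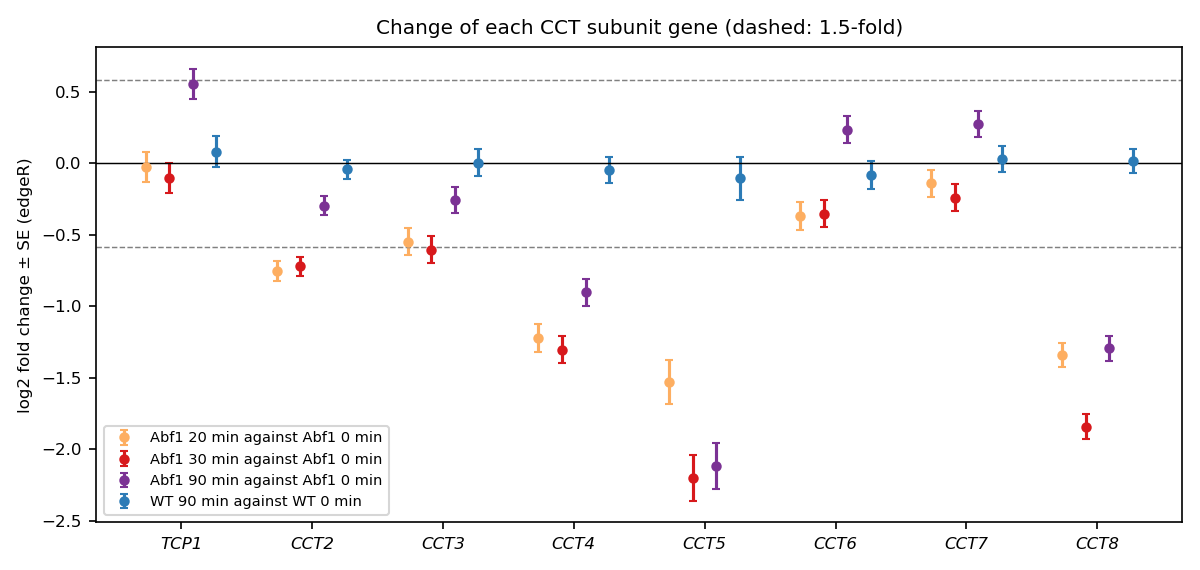
Log2 fold change (points) with its SE (bars) for each subunit gene at 20, 30 and 90 min of rapamycin in the tagged strain against Abf1 0 min, and in WT at 90 min against WT 0 min; dashed lines mark 1.5-fold. CCT4, CCT5 and CCT8 are below the lower line at 20, 30 and 90 min, and the WT points run from -0.11 to 0.08.

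Counted over the complex, 0 of 8 subunit genes were called lower at 5 min (0.507% of all genes tested; 2 lay lower with an unadjusted p below 0.05, and DESeq2 also called 0). CCT5 alone was lower at 10 min (1 of 8, beside 4.02% of all genes), a count that was 2 with DESeq2, 3 without Abf1 0 min replicate 3 and 0 without Abf1 0 min replicate 1 or Abf1 10 min replicate 2 or 3. Together with CCT2, CCT4 and CCT8 it made 4 of 8 both at 15 min (6.85%) and at 20 min (8.65%), and with CCT3 5 of 8 at 30 min (9.8%). CCT3 then dropped out, leaving 4 of 8 at 40 min (10.3%) and 60 min (11.1%), and without CCT2 3 of 8 at 50 min (10.6%), 75 min (11.3%) and 90 min (11.3%). At 50 min 5 of 8 were lower without Abf1 0 min replicate 3 or Abf1 50 min replicate 1. Over the 8 genes the log2 fold change had a median of -0.65 after 20 min, beside 0.06 for all genes tested, and of -0.28 after 90 min, beside 0.04. At 20 min 5 of the 8, CCT2, CCT3, CCT4, CCT5 and CCT8, had every library below those of Abf1 0 min (14.1% of all genes), and at 90 min TCP1, CCT6 and CCT7 had every library above them (21.9%). In edgeR 0 of 8 were called higher at any of the 10 times (7.57% of all genes were at 1 or more times). At 90 min, where edgeR called 6.26% of all genes higher, DESeq2 called 0 of 8 as well. With an unadjusted p below 0.05, 3 of 8 lay higher at 90 min. The share of all genes at that looser threshold was not counted for this or any other comparison. A single test for any difference among the 11 tagged groups called all 8 (23.7% of all genes), with the largest adjusted p for CCT7 (edgeR adjusted p = 0.00103) and the smallest for CCT8 (1.01e-20). Since these comparisons share the 3 libraries of Abf1 0 min, their calls are not independent of each other.

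Rapamycin without the tag left the subunit genes close to where they were. In WT the log2 fold changes at 90 min ran from -0.11 (SE 0.15) for CCT5 to 0.08 (SE 0.11) for TCP1, and edgeR called 0 of 8 (0% of all genes in either direction), with 0 at an unadjusted p under 0.05 and 0 by DESeq2. CCT5 had 302, 298 and 312 CPM in WT 0 min and 296, 276 and 275 CPM in WT 90 min, just below without overlap. Between the strains before depletion (Abf1 0 min against WT 0 min) the log2 differences ran from -0.12 (SE 0.15) for CCT5 to 0.13 (SE 0.11) for TCP1, and again 0 were called by edgeR (0.28% of all genes lower and 0.245% higher), 0 passed an unadjusted p of 0.05 and 0 were called by DESeq2. The replicates of the strains overlapped at 0 min for all 8 genes, a count for which the share of all genes was not taken.

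At 90 min of rapamycin, CCT4, CCT5 and CCT8 were lower in the tagged strain than in WT (14.1% of all genes tested were), with log2 differences of -0.85 (SE 0.10), -2.14 (SE 0.16) and -1.19 (SE 0.09). TCP1 was 0.61 higher (SE 0.11, edgeR adjusted p = 2.02e-05; 9.33% of all genes were called higher), a call that was lost with DESeq2 (0.58), without WT 90 min replicate 3 (0.57) or without Abf1 90 min replicate 3 (0.51). The difference between the strains in the effect of rapamycin was tested as an interaction and called for the same 3 genes (8.83% of all genes were lower), at -0.86 (SE 0.13, edgeR adjusted p = 9.11e-06) for CCT4, -2.01 (SE 0.22, edgeR adjusted p = 9.96e-09) for CCT5 and -1.31 (SE 0.12, edgeR adjusted p = 3.09e-10) for CCT8. For TCP1 it was 0.47 (SE 0.15, edgeR adjusted p = 0.0221) and for CCT2 -0.25 (SE 0.10, edgeR adjusted p = 0.0566), neither of which was called (2.81% of all genes were higher).

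From 30 to 90 min, a comparison added after the time courses had been seen, the fitted values of all 8 genes were positive. TCP1 (0.66, SE 0.11, edgeR adjusted p = 7.92e-05) and CCT6 (0.59, SE 0.10, edgeR adjusted p = 9.64e-05) were called higher (1.36% of all genes were), and CCT5 had the smallest value (0.08, SE 0.16). The TCP1 call was lost without Abf1 90 min replicate 3 (0.58), and that of CCT6 without Abf1 30 min replicate 2 (0.56) or 3 (0.56) or Abf1 90 min replicate 1 (0.58) or 3 (0.55). A fit of only the 6 libraries compared called 0 of 8. The share of all genes called in that smaller fit was not counted, so this count cannot be set against the 1.36%.

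The speed of the fall was described by fitting an exponential decay with a final level to the scaled counts of the 33 tagged libraries, for the 4 genes called lower at both 20 and 30 min (8.46% of all genes tested were). The time constant was 9.63 min for CCT4, 13.3 min for CCT8 and 14.3 min for CCT5, with final levels of 41.5%, 26.4% and 15.4% of the starting level and pseudo-R2 of 0.892, 0.918 and 0.962. The fit for CCT2 did not converge. With times up to 50 min only, a choice made after seeing the data, the constants were 6.32 min for CCT2, 12.7 min for CCT4, 17.5 min for CCT5 and 18.5 min for CCT8, so that the order of CCT5 and CCT8 changed with the times used. The final levels in that fit were 60.0%, 34.4%, 7.72% and 14.5% in the same order. Those of CCT4, CCT5 and CCT8 thus also depended on the times used. These are values for RNA synthesis during a 6 min label, given with no test between genes.

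The balance among subunit genes was compared as CPM per kb of coding length. This scale takes account of length but not of the T content of each gene. Before depletion the 8 lay within 2.03 ± 0.28-fold of each other (highest to lowest in each library, SD, n = 3), from 242 ± 17.4 CPM per kb for CCT2 to 124 ± 18.3 for TCP1. In WT 0 min the ratio was 2.16 ± 0.114 and CCT3, at 242 ± 7.84 CPM per kb, was highest. In Abf1 0 min every gene overlapped the next in the order CCT2, CCT3, CCT8, CCT7, CCT5, CCT6, CCT4, TCP1, so that order is not resolved between neighbours.

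During depletion the ratio first narrowed to 1.73 ± 0.0747 at 10 min and then widened to 3.30 ± 0.512 at 20 min, 6.92 ± 1.04 at 50 min and 6.70 ± 1.24 at 90 min. CCT7 had the highest and CCT5 the lowest group mean from 10 min on, and in every library from 20 min on. Between libraries, CCT7 and CCT3 overlapped at 10, 30, 40, 50 and 60 min. The share of CCT5 in the summed level per kb was 10.9 ± 0.283% in Abf1 0 min, 2.92 ± 0.433% at 50 min and 3.09 ± 0.67% at 90 min, while that of CCT7 went from 13.6 ± 1.61% to 19.9 ± 0.313% and 20.1 ± 1.17%. At 50 min the genes fell into groups that did not overlap, with CCT7, CCT3, CCT2, CCT6 and TCP1 from 187 down to 131 CPM per kb, CCT4 and CCT8 at 62.2 and 57.2, and CCT5 at 27.4. The sum of the 8 genes was 2488 ± 161 CPM in Abf1 0 min, 1445 ± 89.0 CPM at 30 min and 2019 ± 118 CPM at 90 min, beside 2459 ± 17.0 and 2426 ± 96.5 CPM in WT 0 min and WT 90 min.

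**Figure D3:**
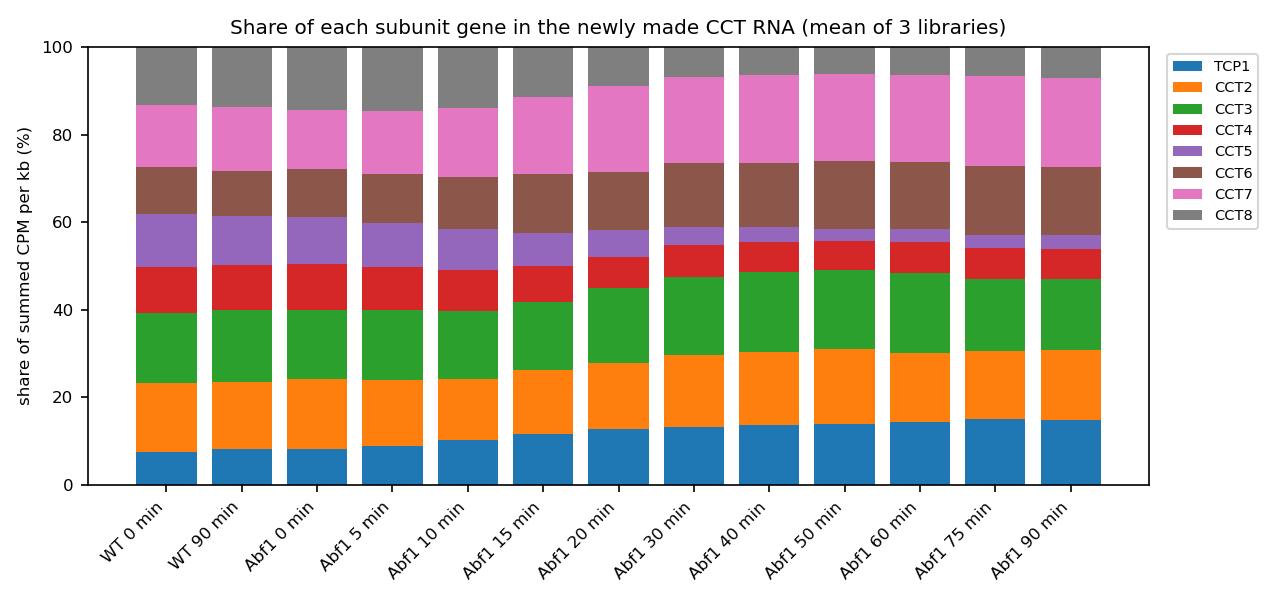
Share of each subunit gene (stacked colours, linear axis to 100%) in the summed CPM per kb of the 8 genes, from the mean of 3 libraries in each of the 13 groups. The CCT5 band narrows from 10.9% in Abf1 0 min to 2.92% at 50 min and the TCP1 band widens, while both WT groups look alike.

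Measured against the complex itself, with each library scaled to the summed counts of the 8 genes, CCT5 (-0.86, SE 0.13) and CCT8 (-0.67, SE 0.07) were lower at 20 min and TCP1 was higher (0.65, SE 0.08). CCT4 fell just short of 1.5-fold at that time (-0.56, SE 0.07, edgeR adjusted p = 1.92e-07). On this scale 4.04% of all genes were called lower and 62.4% higher at 20 min, since the sum of the 8 itself fell. At 90 min CCT4 (-0.60, SE 0.07), CCT5 (-1.82, SE 0.13) and CCT8 (-0.99, SE 0.07) were lower (7.95% of all genes) and TCP1 was higher (0.86, SE 0.08; 20.7% of all genes). CCT2 (0.01, SE 0.08) and CCT3 (0.04, SE 0.07) moved with the sum at 90 min. The 8 genes therefore did not change in proportion. Leaving out Abf1 0 min replicate 1 removed the TCP1 call at 20 min, and 0 of 8 were then higher, while without Abf1 0 min replicate 3 there were 2. At 90 min 2 of 8 were higher without Abf1 0 min replicate 2 or 3 or Abf1 90 min replicate 2, and 3 (TCP1, CCT6 and CCT7) when each gene was set against the other 7. Set against the other 7, CCT4 was also called lower at 20 min (-0.61, SE 0.08).

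Profiles over the 13 group means were compared by their root-mean-square difference on the log2 scale, a description with no test. CCT3 was the closest of 5721 other genes to CCT2 (0.0609), and CCT7 ranked 5 for CCT6 (0.0626) with CCT6 ranking 3 for CCT7. The pair CCT4 and CCT8 was less alike (0.277, rank 287 for CCT4 and 82 for CCT8), and for CCT5 the nearest subunit gene, CCT8, ranked 75 (0.351). TCP1 and CCT5 were farthest apart at 1.16. The spread over groups was 1.09 (SD, log2) for CCT5, more than in 97.9% of genes, and 0.14 for CCT7, more than in 34.8%. The 5 genes closest to the mean profile of the complex were RAD23 (0.0716), which acts in DNA repair and delivery to the proteasome, SSM4 (0.0717), a ubiquitin ligase of the endoplasmic reticulum, MIA40 (0.0820), needed for protein import into the mitochondrial intermembrane space, MIX17 (0.0898) and GSF2 (0.0903).

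Abf1 binds a bipartite motif with a variable middle, searched here as a consensus of 13 positions on both strands, in windows from 250 bases before to 50 bases after the start codon. It was found in 7 of the 8 windows, TCP1 being the exception, and in 720 of 6002 windows (12%) of all genes. Counting from the start codon, the match lay 138 to 126 bases before it in CCT2, 148 to 136 in CCT3, 162 to 150 in CCT4, 160 to 148 in CCT5, 201 to 189 in CCT6, 179 to 167 in CCT7 and 148 to 136 in CCT8. The match was on the coding strand in CCT4, CCT6 and CCT8 and on the other strand in CCT2, CCT3, CCT5 and CCT7, so its orientation did not separate the genes called lower from the others. The 2 matches farthest from the start were those of CCT6 and CCT7, the genes with a match that were called at no time. Distance was not examined in the other genes with a match, and a link between distance and the calls was not tested. Of 704 genes tested with a match, 50.9% were lower at 20 min and 55.1% at 90 min, and of 4899 tested without one 2.63% and 5.14%. A match is a description of these letters and not a site shown to be bound.

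The Reb1 motif (TTACCCG), of another general regulatory factor, was found in CCT4 and CCT7 (7.08% of all windows), the heat shock factor motif (TTCNNGAA) in CCT7 only, where it overlapped the Abf1 match (12.9%), and the Rpn4 motif (GGTGGCAAA), of the regulator of proteasome genes, in CCT6 only (1.2%). The shared element GTGGCAA or GTGGCGA was chosen after the windows had been read and its first form is contained in the Rpn4 motif. It was in 8 of 8 windows and in 363 of 6002 (6.05%), and both it and the Abf1 consensus were in 7 of 8 and in 90 of 6002 (1.50%). In CCT4 the element occurred in 2 places, one of them inside the Abf1 match, and CCT8 had a second one after the start codon. Of 342 genes tested with the element, 14.0% were lower at 20 min and 13.7% were higher at 90 min, beside 8.34% and 5.65% of 5261 without it. At 90 min 15.2% were lower with it and 11.2% without it. Of the 48 genes with the element that were lower at 20 min, 41 also had the Abf1 consensus. Of the 47 that were higher at 90 min, 7 did.

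**Figure D4:**
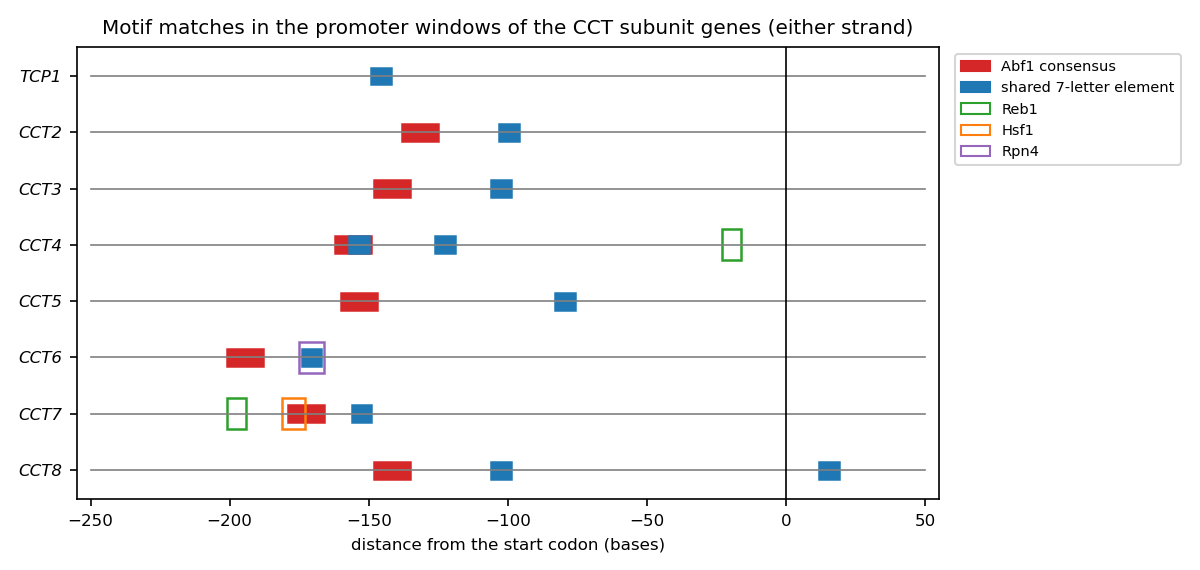
Positions of motif matches in the promoter window of each subunit gene, from 250 bases before to 50 bases after the start codon (0 on the axis, in bases), on either strand. Filled boxes are the Abf1 consensus (red) and the shared element of 7 letters (blue), and open boxes are Reb1, Hsf1 and Rpn4 matches; TCP1 has no red box.

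No gene directly upstream of a subunit gene was called lower at a time when that subunit gene was. YDL144C is divergent from CCT4 with 263 bases between their coding regions, which hold the match printed above, and was called higher at the 9 times from 10 min on, by 0.60 after 10 min (SE 0.14, edgeR adjusted p = 0.00444) and by 1.00 after 90 min (SE 0.14, edgeR adjusted p = 1.31e-06), while CCT4 fell. Its interaction with strain at 90 min was 1.13 (SE 0.21, edgeR adjusted p = 8.46e-05). SSL2, which codes for a DNA helicase of the transcription factor TFIIH and is divergent from CCT2 with 260 bases between them, had -0.36 (SE 0.07) at 20 min and 0.18 (SE 0.07) at 90 min and was not called at any time. RPA12, a subunit of RNA polymerase I, lies upstream of CCT5 in the same direction, ending 341 bases before it. It was called higher at 20 min (0.63, SE 0.17, edgeR adjusted p = 0.0074), 75 min and 90 min (0.65, SE 0.17, edgeR adjusted p = 0.00342).

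Of the remaining upstream genes, GCD6, for a subunit of the translation initiation factor eIF2B, lies 366 bases before TCP1 and was called lower at 50 min (-0.72, SE 0.21), 60 min and 75 min. TPH3, 284 bases before CCT3, was called higher at 50, 60 (0.69, SE 0.14) and 75 min. SND1, a protein-targeting factor gene divergent from CCT6, and MDV1, a mitochondrial fission gene upstream of CCT7, were called at no time. YJL007C, upstream of CCT8, had too few counts to be tested.

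**Figure D5:**
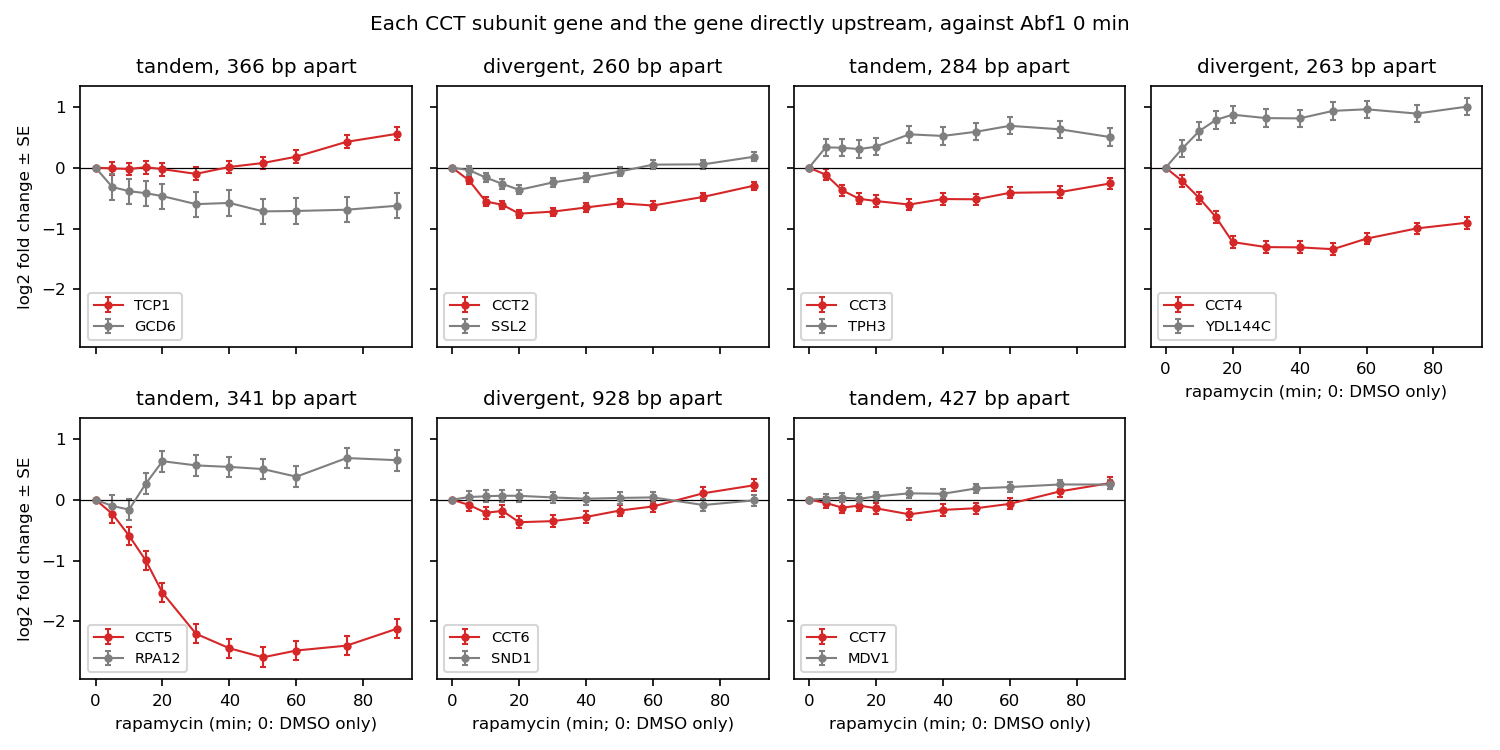
Log2 fold change against Abf1 0 min (points, bars are SE) over time in rapamycin for 7 subunit genes (red) and the gene directly upstream of each (grey), with the arrangement and the distance in bases above each panel. YDL144C reaches 1.00 at 90 min where CCT4 is at -0.90, and RPA12 is at 0.65 where CCT5 is at -2.12.

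The partners of CCT were examined through 32 genes: prefoldin, which hands unfolded actin and tubulin to CCT, phosducin-like cofactors, folding substrates, tubulin cofactors, chaperones of the ribosome, the mitochondrial chaperonin and the heat shock factor. All 32 were tested. At 20 min edgeR called 2 of 32, both lower (8.65% of all genes were lower), and at 90 min 6, of which 3 were lower (11.3% of all genes) and 3 higher (6.26%), shares near those of all genes. Their median log2 fold change was 0.03 at 20 min, beside 0.06 for all genes.

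Of the 6 prefoldin genes only GIM3 was called, with log2 fold changes of -2.86 after 20 min (SE 0.28, edgeR adjusted p = 6.85e-10) and -3.84 after 90 min (SE 0.31, edgeR adjusted p = 1.34e-11). Its interaction was -4.03 (SE 0.40, edgeR adjusted p = 1.52e-09). Among the 7 ribosome-bound chaperones SSZ1, an Hsp70-like protein of the ribosome-associated complex, was lower, at -0.86 (SE 0.15) after 20 min and -1.52 after 90 min (SE 0.15, edgeR adjusted p = 1.09e-09), and its interaction was -1.54 (SE 0.21). SSB2, a ribosome-bound Hsp70, was lower only at 60 min (-0.65, SE 0.19). Among the 8 substrates ACT1, for actin, had 0.10 (SE 0.12) at 20 min and, after 90 min, 0.52 (SE 0.12, edgeR adjusted p = 0.00104), under 1.5-fold, and TUB1 and TUB2, for alpha- and beta-tubulin, had -0.17 (SE 0.11) and -0.02 (SE 0.12) at 90 min. STE4, for the beta subunit of the pheromone-response G protein, was lower at 90 min (-0.77, SE 0.16, edgeR adjusted p = 0.000278), with an interaction that was not called (-0.75, SE 0.22, edgeR adjusted p = 0.0147). CDC20, an activator of the anaphase-promoting complex, changed by -0.46 (SE 0.12) at 90 min, under 1.5-fold, and was called lower against Abf1 30 min (-0.73, SE 0.12) and WT 90 min (-0.73, SE 0.12) but not in the interaction (-0.42, SE 0.16).

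Of the 6 tubulin cofactors, CIN1 (0.67, SE 0.16), CIN2 (1.42, SE 0.32) and RBL2 (0.79, SE 0.19, edgeR adjusted p = 0.00131) were higher at 90 min, with interactions of 0.79, 1.26 and 0.62 that were not called. PLP2, a phosducin-like cofactor, stood at 0.15 (SE 0.08) at 90 min and the 2 genes of the mitochondrial chaperonin, HSP60 and HSP10, at -0.18 (SE 0.08) and -0.06 (SE 0.20), and none of the 3 was called in edgeR at any time. HSF1, for the heat shock factor, was not called against Abf1 0 min (0.52, SE 0.13, at 90 min) but had an interaction of 0.86 (SE 0.18, edgeR adjusted p = 0.000435), with -0.34 (SE 0.13) for rapamycin in WT.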

How the data were processed

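The authors deposited raw counts per gene for 39 libraries: HISAT2 2.0.5 alignment to sacCer3, 1 read pair kept per combination of molecular identifiers, featureCounts (Subread 1.6.5) on genes extended to known start sites, and 2 runs added. Whether counting used strand is not given in the sources used here. Their table of DESeq2 1.10.1 fold changes and p-values was not used.

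Counts were tested with edgeR 4.0.16 in R 4.3.3 (quasi-likelihood, robust, TMM, filterByExpr minimum count 10, 1 coefficient per group over all libraries) and Benjamini-Hochberg adjustment over 5722 features. The tested features held 99.99% of the counts. SE is the fold change divided by the root of its F value. The edgeR fit was tested on simulated data. Alternatives were DESeq2 1.42.0 and its size factors, total counts, no filter, other sets of libraries and leaving out each library. Named genes were the 8 subunits, their upstream neighbours, ABF1, called partners and the 5 nearest profiles. Although the rule for the members used names only, the members and lists were chosen with earlier results of these data known.

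Replicate numbers are shared by all groups in the labels. Deviations of same-numbered libraries correlated in 33 of 39 pairs over 0.1 (r from -0.13 to 0.79). Every pair was over 0.1 in 9 of 13 comparisons, all of them against Abf1 0 min within the tagged strain. The edgeR results given above nevertheless come from a fit without pairing. A fit with a replicate block was run as an alternative.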

Additional observations from a re-analysis of the deposited data

Results flagged for a closer look

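The effect of 90 min of rapamycin differed between the tagged strain and WT, by the interaction test in edgeR, for 3 subunit genes. For CCT4 the log2 difference was -0.86 (edgeR adjusted p = 9.11e-06), for CCT5 -2.01 (edgeR adjusted p = 9.96e-09) and for CCT8 -1.31 (edgeR adjusted p = 3.09e-10). The 3 calls held when any single library was left out. In each of the 3 genes, all libraries of Abf1 90 min lay below all libraries of Abf1 0 min. The same was true of CCT2 and CCT3, so it did not set the 3 apart, and the share of all genes was not counted. No test for one library lying apart from the rest of its group was run, since each group held 3.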

How the results depend on the processing

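Of 688 comparisons of a result with an alternative, 661 kept their call status, 16 lost a call, 11 gained one and 0 reversed. Values called in neither fit counted among the 661, also 10 that changed sign. In the tagged strain the comparisons covered 10, 20, 30 and 90 min and the change from 30 to 90 min. WT with rapamycin, the strains at 0 and 90 min and the interaction were also covered. Fits without single libraries entered only by their lowest and highest value. With the replicate block no call among the subunit genes changed: at 20 min CCT5 had -1.54 (edgeR adjusted p = 6.06e-12), and the counts of 4 lower genes at 20 min and 3 at 90 min stood. The number lower at 10 min was 2 with DESeq2 size factors, total counts, no filter or DESeq2, and 0 to 3 without single libraries (3 without Abf1 0 min replicate 3). At 50 min it was 3 to 5 without single libraries, 5 without Abf1 0 min replicate 3 or Abf1 50 min replicate 1. The number higher at 90 min was 0 to 1. Between 30 and 90 min, 1 gene was higher with total counts, no filter or tagged libraries only, 0 with only the libraries compared and 0 to 3 without single libraries. For Abf1 90 min against WT 90 min, 0 were higher with DESeq2 size factors, total counts, no filter, only the libraries compared or DESeq2, and 0 to 1 without single libraries. Relative to the other 7 subunit genes in place of all 8, 2 were higher at 20 min and 3 at 90 min, and CCT4 was also lower at 20 min. Relative to all 8, 1 was higher at each time, and 0 to 2 and 1 to 2 without single libraries. The cause of these changes was not tested. Shares of all genes called were counted only for the main fit and the fit relative to all 8, not for the alternatives. Counted per T of the coding strand, which 4-thiouracil replaces in RNA, in place of per kb, the share of TCP1 in Abf1 0 min was 7.31% and that of CCT2 17.3%. Other scaling moved the median of all genes by less than 0.1 on the log2 scale.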
